A study of Mus musculus with 8 samples.

Results

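The Reg family of secreted lectins was read in RNA sequencing libraries of mouse jejunal crypts. The members were taken by symbol, and all 7 (Reg1, Reg2, Reg3a, Reg3b, Reg3d, Reg3g and Reg4) were among the 23951 gene symbols of the expression table. Every library came from mice that carry an activated Braf allele, BRAF-V600E f/+, switched on by Villin-CreER(T2), a tamoxifen-dependent recombinase whose promoter is active throughout the intestinal epithelium. Mice received tamoxifen for 4 days and crypts were taken 1 day later. The group BRAF (3 libraries) carried the Braf allele alone, SMAD4KO_Braf (3 libraries) also carried Smad4 f/f, and CDX2KO_Braf (2 libraries) also carried Cdx2 f/f. All 8 libraries therefore share the activated allele, Cre and tamoxifen, and no value here measures the effect of the Braf allele itself. Age, sex and litter are not in the labels, and nothing there says that libraries of a group came from separate mice, so p-values measure the spread between libraries, which may be technical. Libraries are named by group and by the number of their column, 0 to 2.

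Reg proteins are small secreted C-type lectins. In the small intestine several of them are made by Paneth cells, goblet cells and enterocytes and released into the lumen, where they hold bacteria away from the epithelium. Transcription of the Reg3 genes is known to respond to bacterial signals, largely through interleukin-22 (IL-22), a cytokine of innate and T lymphocytes that activates the transcription factor STAT3 in epithelial cells. Reg4 is a divergent member and is a known marker of secretory and enteroendocrine cells of the gut.

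The 7 genes differ in position. In RefSeq's GRCm38.p6 annotation, 6 of them lie together on chromosome 6 in the order Reg3b, Reg3d, Reg3a, Reg2, Reg1 and, after a pseudogene, Reg3g, and Reg4 lies alone on chromosome 3. The coding sequences of Reg3b and Reg3g are identical at 399 of 525 aligned bases (76%), against 73.9% for Reg3a with Reg3b, 72.8% for Reg3a with Reg3g and 49.6 to 54.6% for Reg4 with the other members. The longest stretch shared exactly by Reg3b and Reg3g is 35 bases, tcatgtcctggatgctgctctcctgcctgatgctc, which is shorter than the 50-base reads. For each member the transcript with the longest coding part was taken. None of its 50-base windows matched another member with 2 or fewer mismatches. Of Reg1's windows, 32 of 855 (3.74%) matched a gene outside the family exactly.

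Promoters are given for the most abundant pair and for the pair that was lower in the libraries labelled CDX2KO_Braf than in every other library. The levels described next differ between these pairs. Each is the 250 bases before the RefSeq transcription start in GRCm38.p6, written 5′ to 3′ on the gene's strand, with capitals for matches on either strand to any of 5 motifs. The motif searched for STAT proteins was TTCNNNGAA. The motif of the factor AP-1 was TGACTCA. CDX proteins were represented by the letters TTTATG. The TATA box was searched as TATAAA. For SMAD proteins the letters were GGCGCC. No 2 motifs overlapped in the windows printed. The windows are chr6:78370635-78370884 (Reg3b, plus strand), chr6:78468875-78469124 (Reg3g, minus strand), chr6:78380459-78380708 (Reg3a, plus strand) and chr3:98221906-98222155 (Reg4, plus strand).
Reg3b: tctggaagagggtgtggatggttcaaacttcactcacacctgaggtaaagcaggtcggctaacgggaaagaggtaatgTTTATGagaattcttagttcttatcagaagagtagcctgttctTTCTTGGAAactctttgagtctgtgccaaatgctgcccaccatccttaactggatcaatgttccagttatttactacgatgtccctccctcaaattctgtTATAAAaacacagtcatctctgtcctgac
Reg3g: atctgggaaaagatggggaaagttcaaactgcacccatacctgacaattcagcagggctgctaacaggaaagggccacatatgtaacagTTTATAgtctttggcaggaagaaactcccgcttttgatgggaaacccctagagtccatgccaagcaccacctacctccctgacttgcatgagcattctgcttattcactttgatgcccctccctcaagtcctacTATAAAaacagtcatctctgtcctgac
Reg3a: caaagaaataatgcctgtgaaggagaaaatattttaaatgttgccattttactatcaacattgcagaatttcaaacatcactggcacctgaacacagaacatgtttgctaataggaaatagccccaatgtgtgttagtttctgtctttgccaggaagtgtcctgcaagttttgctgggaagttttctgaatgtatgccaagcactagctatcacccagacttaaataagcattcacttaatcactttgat
Reg4: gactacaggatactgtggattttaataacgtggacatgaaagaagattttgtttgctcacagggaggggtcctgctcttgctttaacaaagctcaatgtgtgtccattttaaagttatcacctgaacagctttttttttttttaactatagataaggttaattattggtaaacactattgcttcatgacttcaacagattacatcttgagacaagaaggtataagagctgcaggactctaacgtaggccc
The Reg3b window held TTCTTGGAA, a STAT match, 129 to 121 bases before the start, a CDX match 172 to 167 bases before it and a TATA match 29 to 24 bases before it. The Reg3g window held a TATA match 27 to 22 bases before the start and another on the opposite strand. None of the 5 motifs was in the Reg3a or Reg4 window. Over 32851 promoters of the same length, 7.02% held the STAT motif, 4.463% AP-1, 10.76% CDX, 12.37% TATA and 9.586% SMAD. The Reg3b and Reg3g windows were identical at 173 of 253 aligned positions (68.4%), and those of Reg3a and Reg4 at 44.3%. These matches describe the sequence and are not measured binding.

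Values are FPKM, a read count scaled to transcript length and library size, so levels of different genes can be set side by side. Summed FPKM per library ran from 431269 to 595547, and genes at 1 FPKM or more from 10924 to 11570. The deposited table holds no counts, so the absolute depth is unknown. The most frequent ratio between the low values of BRAF library 0 and those of another library gives rough relative depths of 0.695 to 1.46. Only 26 to 99 of the 2096 to 2619 low genes compared per library lay at that ratio. Smad4 was 42.5, 47.0 and 42.4 FPKM in BRAF and 10.7, 8.38 and 7.66 FPKM in SMAD4KO_Braf. Cdx2 was 64.2, 82.6 and 80.1 FPKM in BRAF and 155 and 121 FPKM in CDX2KO_Braf, which goes against that label for a whole-gene value. The CDX2KO_Braf libraries are therefore called the libraries labelled CDX2KO_Braf. Of 13 listed genes of the stomach lining, 6 were tested (Tff2, Pgc, Cldn18, Gkn1, Gkn2 and Gkn3). All 6 rose in these libraries against BRAF, where 6.89% of all tested genes rose. Tff2, Pgc and Cldn18 met the minimum level for the test only through these libraries, so their calls are no support for the label. Gkn1, Gkn2 and Gkn3 also met it in other libraries. BRAF library 0 and SMAD4KO_Braf library 0 carried Y-linked transcripts and the other 6 did not. Epcam, a marker of epithelium, ran from 540 to 992 FPKM, Vil1, a marker of intestinal epithelium, from 346 to 862 FPKM, and Gata4, a factor of the proximal small intestine, from 39.7 to 58.8 FPKM. Other genes of the same lists were less even. Of 10 epithelial genes, Hnf4a and Vil1 fell and Cdx2 rose in the libraries labelled CDX2KO_Braf against BRAF. Of 8 genes that differ along the small intestine, Sis (2.85 to 755 FPKM over all libraries), Lct and Fabp6 fell. In this comparison 7.21% of all tested genes fell.

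Reg3b and Reg3g made up nearly all of the family's RNA. Reg3g, the lectin RegIIIγ that binds peptidoglycan and kills Gram-positive bacteria, was 859, 338 and 2006 FPKM in BRAF, 3799, 901 and 1617 FPKM in SMAD4KO_Braf, and 1305 and 1549 FPKM in the libraries labelled CDX2KO_Braf. Reg3b, its close relative with activity mainly against Gram-negative bacteria, was 1028, 139.7 and 2012 FPKM in BRAF, 7942, 1181 and 1771 FPKM in SMAD4KO_Braf, and 370 and 518 FPKM in the libraries labelled CDX2KO_Braf. For both genes SMAD4KO_Braf library 0 was the highest of the 8 and BRAF library 1 the lowest. Together the pair gave 77.1 to 97.5% of the summed FPKM of the 7 genes, and the family gave 0.134% (BRAF library 1) to 2.06% (SMAD4KO_Braf library 0) of all FPKM. Ranked among all genes of a library, Reg3b stood between 6th and 528th and Reg3g between 16th and 174th.

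Reg4 came next, at 197, 131 and 248 FPKM in BRAF, 466, 263 and 119 FPKM in SMAD4KO_Braf, and 35.9 and 41.8 FPKM in the libraries labelled CDX2KO_Braf. Both of the last were below every other library. Reg1, lithostathine, best known as a secreted product of the exocrine pancreas, was 19.1, 4.29 and 47.7 FPKM in BRAF, 21.3, 15.7 and 13.2 FPKM in SMAD4KO_Braf, and 6.99 and 25.6 FPKM in the libraries labelled CDX2KO_Braf. Its groups overlapped throughout. Reg3a was 4.76, 6.72 and 12.8 FPKM in BRAF, 20.9, 9.25 and 14.6 FPKM in SMAD4KO_Braf, and 0.237 and 0.874 FPKM in the libraries labelled CDX2KO_Braf, again below all others.

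Reg3d was near the lower end of detection, at 0.777, 0.141 and 0.906 FPKM in BRAF, 1.69, 1.24 and 2.45 FPKM in SMAD4KO_Braf, and 0.0864 and 0.263 FPKM in the libraries labelled CDX2KO_Braf. It reached 1 FPKM only in SMAD4KO_Braf libraries. Reg2, another member known from the pancreas, was listed at 0 in 7 libraries and at 0.242 FPKM in SMAD4KO_Braf library 2. Genes entered the test with at least 1 FPKM in at least 2 libraries. Of the 7 members, 6 did, Reg2 did not, and Reg3d did so through SMAD4KO_Braf alone. Of 15 marker genes of pancreatic acinar cells, where Reg1 and Reg2 are abundant, 11 never reached 1 FPKM and Cpa1, Cpb1, Amy2a5 and Try4 were at 0 in all 8 libraries.

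**Figure D1:**
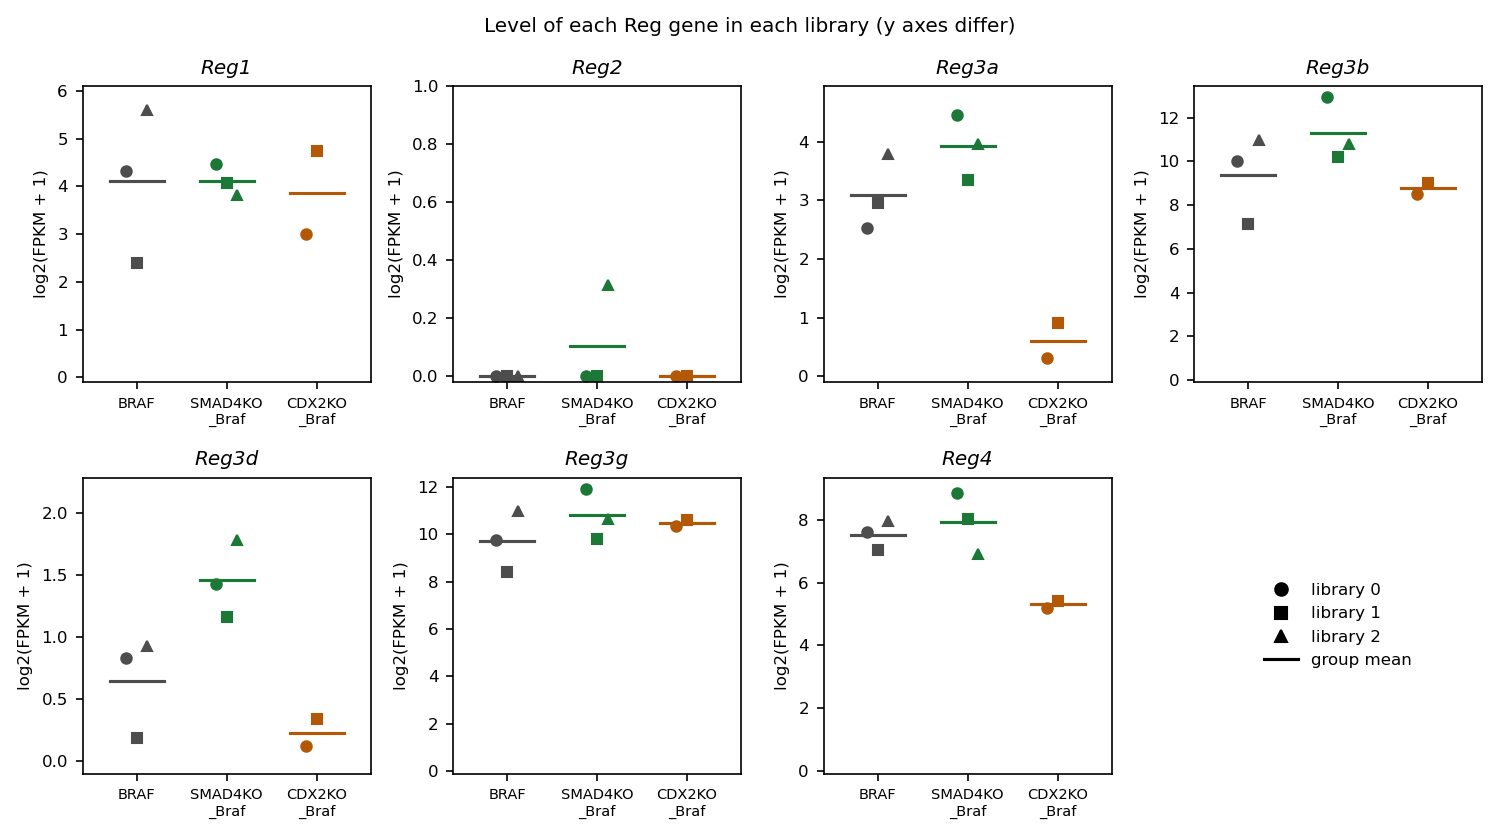
Level of each Reg gene as log2(FPKM + 1) (y axis, a different range in each panel) by group (x axis), with 1 symbol per library, the symbol's shape for the column number and a bar for the group mean. Reg3a and Reg4 are lower in both libraries labelled CDX2KO_Braf than in the other 6, while Reg1 and Reg3g overlap between all groups.

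Libraries of 1 group differed widely in this family. The highest Reg3b level was 14.4 times the lowest among BRAF libraries, 6.72 times among SMAD4KO_Braf and 1.40 times among the libraries labelled CDX2KO_Braf. For Reg3g these ratios were 5.93, 4.22 and 1.19. On the log2(FPKM + 1) scale the range of Reg3b in BRAF was 3.84, wider than that of 98.6% of the tested genes, whose median range was 0.350. Reg1 (range 3.20, wider than 98.3%) and Reg3g (2.56, wider than 97.7%) also varied widely in BRAF. In SMAD4KO_Braf the ranges were 2.75 for Reg3b, 2.07 for Reg3g and 1.95 for Reg4, against a median of 0.389. BRAF library 1, lowest for Reg1, Reg3b and Reg3g, had the highest summed FPKM of T-cell markers (1007, against 25.7 to 491 in the others) and of Fabp6, the ileal bile acid binding protein (1083 FPKM, against 2.31 to 430). Its mesenchyme markers summed to 116 FPKM, against 4.54 to 47.8 in the others, and its myeloid and B-cell markers to 778 FPKM, against 43.8 to 805. SMAD4KO_Braf library 0, highest for Reg3b, Reg3g, Reg3a and Reg4, had a T-cell sum of 64.9 FPKM and 67.4 FPKM of Fabp6. The part of these differences in the Reg levels was not tested.

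With Smad4 deleted, Reg3b averaged 3631 ± 3745 FPKM (SD, n = 3) against 1060 ± 936 in BRAF, and Reg3g averaged 2106 ± 1509 against 1068 ± 853, but neither difference exceeded the spread between libraries. On the log2(FPKM + 1) scale, on which every fold change below is given and which understates changes of low genes, the difference was 1.94 ± 1.07 (SE) for Reg3b (95% interval -0.58 to 4.47, limma adjusted p = 0.416) and 1.08 ± 0.73 for Reg3g (-0.64 to 2.80, adjusted p = 0.491). Reg3a differed by 0.84 ± 0.39 (-0.09 to 1.76, adjusted p = 0.362), Reg4 by 0.40 ± 0.48 (-0.72 to 1.52, adjusted p = 0.697) and Reg1 by 0.01 ± 0.80 (-1.87 to 1.89, adjusted p = 0.997). Of the 6 tested members, 0 passed the limma test. Only 9 of 12084 tested genes did (0.0745%), so a count of 0 is near the background. At an unadjusted p under 0.05, 1 member stood out, Reg3d (0.81 ± 0.26, adjusted p = 0.273), as did 15.1% of all tested genes. Its SMAD4KO_Braf libraries all lay above the BRAF libraries, as in 8.99% of the tested genes, and it entered the test through those libraries. The Reg3b difference rested on single libraries: it was 0.83 without BRAF library 1, 2.75 without BRAF library 2 and 1.13 without SMAD4KO_Braf library 0, and 0.50 with libraries weighted by their spread, with none of these passing the test. The intervals leave room for a several-fold change of either gene in SMAD4KO_Braf.

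In the libraries labelled CDX2KO_Braf, whose Cdx2 level goes against that label, Reg3a and Reg4 fell while Reg3b and Reg3g did not pass the test. Reg3a averaged 0.555 ± 0.45 FPKM (SD, n = 2) against 8.09 ± 4.19 in BRAF (n = 3), a log2 difference of -2.48 ± 0.44 (95% interval -3.52 to -1.45, limma adjusted p = 0.0124). With a pseudocount of 0.1 in place of 1 the Reg3a difference was -3.72 (adjusted p = 0.00801). Reg4 averaged 38.8 ± 4.17 against 192 ± 58.8 FPKM, a difference of -2.23 ± 0.53 (-3.48 to -0.98, adjusted p = 0.0344). So 2 of the 6 tested members fell and 0 rose, where 7.21% of all tested genes fell and 6.89% rose (14.1% in either direction). Both groups were apart for these 2 genes, as for the 22.7% of tested genes that were lower in every library labelled CDX2KO_Braf. The call for Reg3a was lost without either library labelled CDX2KO_Braf (adjusted p = 0.0904 without library 0 and 0.0587 without library 1). The call for Reg4 was lost without either of them (0.173 and 0.147), without BRAF library 0 (0.0803) or 2 (0.0948), without SMAD4KO_Braf library 1 (0.0542), and with no filter on low values (0.0650), with the difference staying between -2.34 and -2.02 in these fits.

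Reg3g differed by 0.77 ± 0.82 (-1.16 to 2.69, adjusted p = 0.570) between the same groups and Reg3b by -0.60 ± 1.20 (-3.42 to 2.23, adjusted p = 0.774). Reg1 differed by -0.25 ± 0.90 (adjusted p = 0.878) and Reg3d by -0.42 ± 0.29 (adjusted p = 0.384). The median difference over the 6 tested members was -0.51, beside 0.02 over all tested genes. Against SMAD4KO_Braf it was -1.89 beside 0.02, and in SMAD4KO_Braf against BRAF 0.82 beside -0.01. The 3 comparisons share libraries, and the medians include Reg3d, which was tested only through its level in SMAD4KO_Braf.

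Set directly against SMAD4KO_Braf, the libraries labelled CDX2KO_Braf were lower in Reg3a and Reg4. Reg3a differed by -3.32 ± 0.44 (-4.35 to -2.28, limma adjusted p = 0.00530) and Reg4 by -2.63 ± 0.53 (-3.88 to -1.38, adjusted p = 0.0223). Reg3d differed by -1.23 ± 0.29 (-1.91 to -0.55, adjusted p = 0.0378), but it could be tested only because of its high SMAD4KO_Braf values, so its call is no support for a difference. Among all tested genes 5.01% fell in this comparison and 6.6% rose (11.6% in either direction). Reg3b lay lower in both libraries labelled CDX2KO_Braf than in all SMAD4KO_Braf libraries, as did 22.2% of tested genes, but its difference of -2.54 ± 1.20 (-5.36 to 0.28, adjusted p = 0.215) did not pass. Reg3g (-0.31 ± 0.82, adjusted p = 0.833) and Reg1 (-0.26 ± 0.90, adjusted p = 0.878) did not pass either. The adjusted p of Reg3a stayed between 0.00386 and 0.0481 under every alternative run, whereas Reg4 lost its call without SMAD4KO_Braf library 1 (0.0554), without library 0 (0.134) or 1 (0.114) labelled CDX2KO_Braf, and in a fit of the 2 groups alone (0.0558). Reg3d lost it without BRAF library 0 (0.0512) or 2 (0.0541), SMAD4KO_Braf library 0 (0.0784) or 2 (0.101), or library 0 (0.208) or 1 (0.142) labelled CDX2KO_Braf, and with quantile normalization (0.0745) or sex as a term (0.0532).

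**Figure D2:**
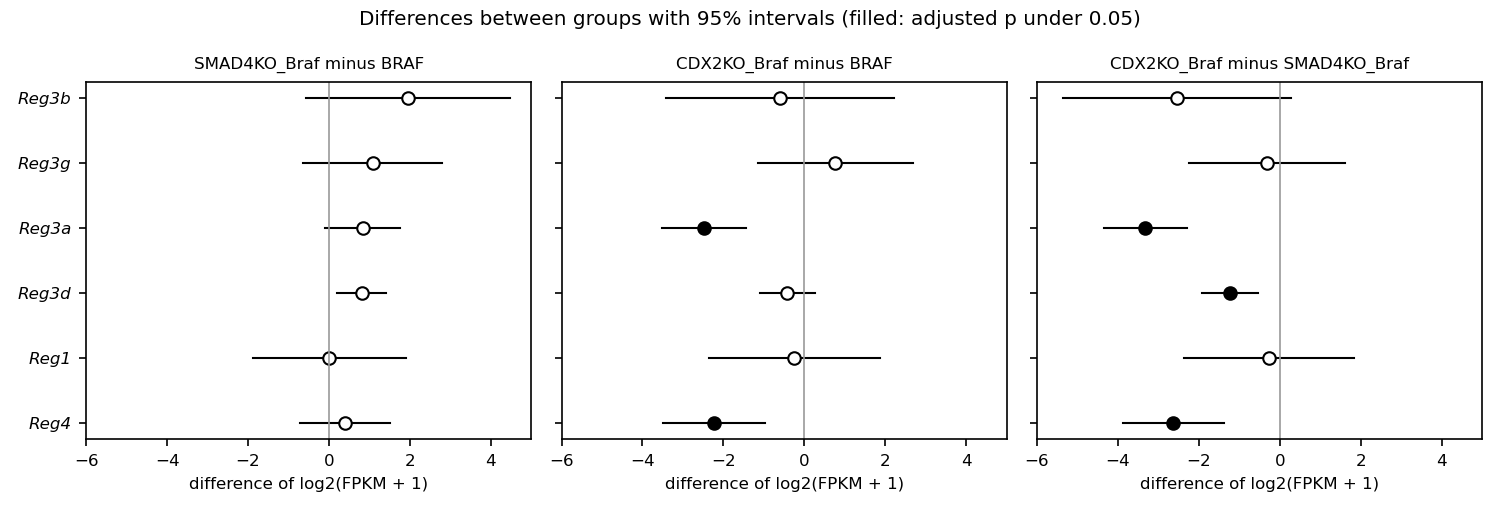
Difference of log2(FPKM + 1) between groups (x axis) for each of the 6 tested Reg genes (y axis), with 1 panel per comparison, a point for the estimate, a line for its 95% interval and a filled point for an adjusted p under 0.05. Reg3a and Reg4 are filled in both comparisons with the libraries labelled CDX2KO_Braf, Reg3d only in the comparison with SMAD4KO_Braf, and no gene in the panel of SMAD4KO_Braf minus BRAF.

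The balance between Reg3b and Reg3g also differed between libraries. Reg3b divided by Reg3g was 1.20, 0.413 and 1.003 in BRAF, 2.09, 1.31 and 1.10 in SMAD4KO_Braf, and 0.283 and 0.334 in the libraries labelled CDX2KO_Braf. Both of the last were under the other 6, and BRAF library 1 was the nearest to them. Reg3g therefore supplied 76.0 and 72.5% of the family's FPKM in the libraries labelled CDX2KO_Braf and 31.0 to 54.6% in the other 6, while Reg3b supplied 21.5 and 24.3% there and 22.5 to 64.8% in the others. Reg4 supplied 2.09 and 1.96% there and 3.38 to 21.1% in the others. The ratio was singled out after its values were seen and is given as a description.

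**Figure D3:**
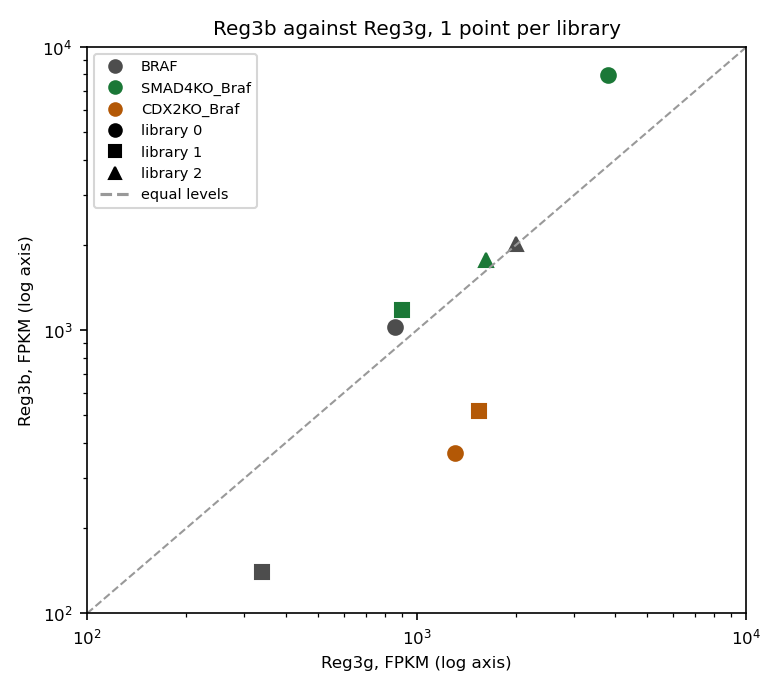
Reg3b (y axis) against Reg3g (x axis) in FPKM on log axes, with 1 point per library, colour for the group, shape for the column number and a dashed line where both levels are equal. The libraries labelled CDX2KO_Braf lie under the line at ratios of 0.283 and 0.334, and those of SMAD4KO_Braf lie above it at 1.10 to 2.09.

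The genes whose pattern over the 8 libraries lay nearest to each member were found by the mean absolute difference of log2(FPKM + 1) values centred on each gene's mean, among 8430 genes. For Reg3a they were Hpd (0.345), Reg4 (0.461), the inflammasome receptor Nlrp6 (0.473), Myl7 (0.489) and Mmd (0.492), against a mean absolute deviation of Reg3a itself of 1.15. For Reg4 they were the Paneth and goblet cell lectin Itln1 (0.338), Myl7 (0.349), the Paneth cell defensin Defa26 (0.378), Slc23a2 (0.426) and Slc27a6 (0.428), against its own 0.990. Reg3b had no near neighbour: Itln1 (0.824), Baiap2l2 (0.830), Cyp2j6 (0.836), Pycard (0.842) and H2afv (0.863) were barely nearer than Reg3g (0.902), against its own 1.29. Reg3d lay at 0.858 from Reg3b, nearer than Reg3g, but its mean was under the 5 FPKM required of candidates. The nearest genes of Reg3g were Sdsl (0.413), Selm (0.445), Rpl36 (0.466), Acadl (0.492) and Dpm3 (0.507), against 0.736. For Reg1 they were Bmyc (0.436), Pnliprp2 (0.468), Rps4l (0.468), St3gal6 (0.477) and Dcxr (0.488), against 0.734, and for Reg3d Mmp14 (0.203), Per2 (0.211), Pla2g5 (0.223), Sfi1 (0.228) and Ankrd10 (0.240), against 0.478. Itln1 was among the nearest genes of both Reg4 and Reg3b.

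**Figure D4:**
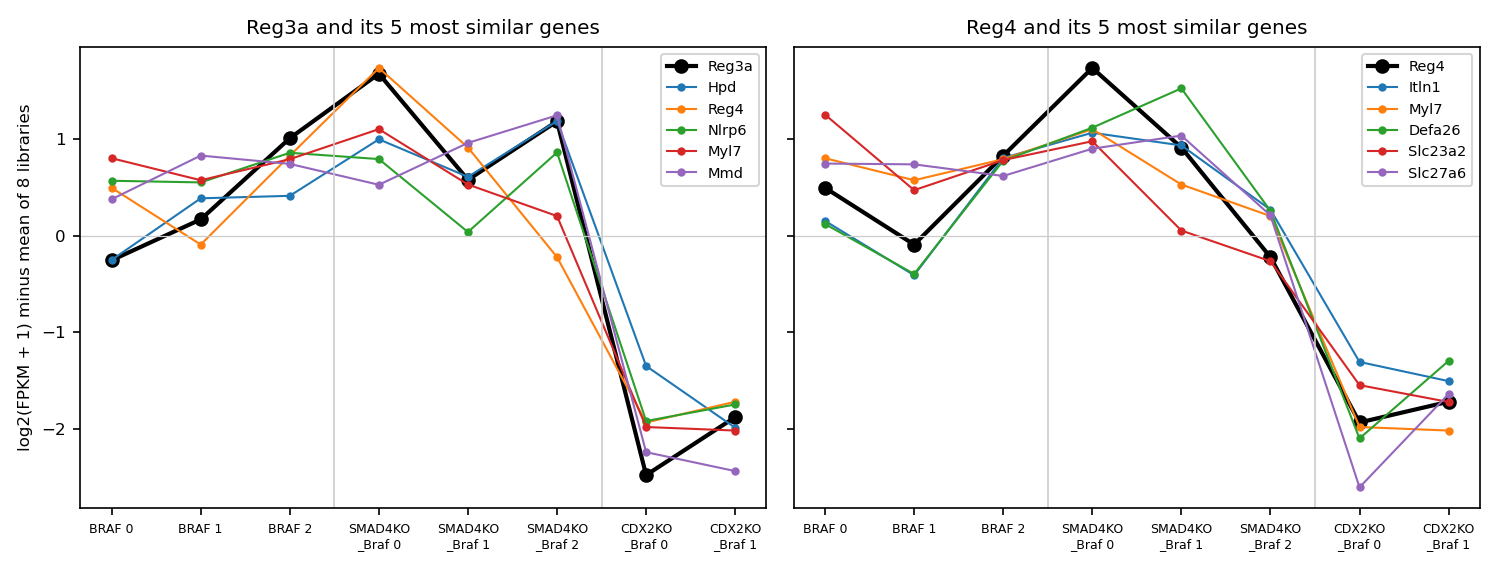
Centred log2(FPKM + 1) (y axis) of Reg3a and of Reg4 (thick black lines) and of the 5 nearest genes of each (coloured lines) in the 8 libraries (x axis, vertical lines between groups). All 6 lines of each panel are lowest in the libraries labelled CDX2KO_Braf, and within the other groups the lines cross. The coloured genes were chosen for their likeness in these same libraries, so the shared low follows from that choice.

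Cell type markers also differed in the libraries labelled CDX2KO_Braf, not all in the direction of Reg3a and Reg4. Of all tested genes, 7.21% fell and 6.89% rose in these libraries against BRAF, and 5.01% fell and 6.6% rose against SMAD4KO_Braf. Summed FPKM of Paneth cell markers was 7996 and 5475 in the libraries labelled CDX2KO_Braf against 10753 to 29063 in the other 6, and 4 of 15 tested markers fell against BRAF (Defa3, Lyz1, Defa26 and Itln1), joined by Defa17 and Clps against SMAD4KO_Braf. Enteroendocrine markers summed to 95.5 and 67.7 FPKM there and 82.8 to 242 in the others, with Neurog3 and Chgb falling against both other groups and Tph1 and Tac1 against SMAD4KO_Braf. Markers of goblet and deep crypt secretory cells, in 1 list, summed to 8960 and 7665 FPKM there and 5132 to 10254 in the others. Of these, Cd24a and Clca1 rose against BRAF. Enterocyte markers summed to 9045 and 4046 FPKM there and 7293 to 31122 in the others, with 8 of 12 falling against BRAF (Sis, Slc15a1, Lct, Krt20, Slc5a1, Fabp1, Anpep and Vil1). Whether called or not, 5 tested Paneth cell markers had a positive difference from BRAF in these libraries and 10 a negative one. These counts were 2 and 9 for enteroendocrine, 6 and 6 for goblet and deep crypt secretory cell, and 0 and 12 for enterocyte markers. Over all tested genes they were 6346 and 5733. In SMAD4KO_Braf against BRAF, 0 genes of these 4 lists passed the test, where 0.0745% of all tested genes did. There 14 of 15 tested Paneth cell markers had a positive difference (median 0.83, 2 higher at an unadjusted p under 0.05), and 12 of 12 enterocyte markers had a negative one (median -1.25, 8 at an unadjusted p under 0.05). Of all tested genes, 15.1% reached that unadjusted p in either direction, and the Paneth cell count of 2 of 15 is near this share. In bulk crypts, fewer cells of a type and less RNA per cell cannot be told apart, and the part of these shifts in the Reg levels was not tested.

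Upstream of the Reg3 genes, Il22 itself was listed at 0 in all 8 libraries, and of 9 cytokines only Tnf could be tested. Of 23 receptor and signalling genes that act upstream of the Reg3 genes (IL-22, IL-17, IL-6, IL-18, STAT3 and Toll-like receptor signalling), 20 were tested. Against BRAF, 0 changed in SMAD4KO_Braf (median difference -0.18) and 1 rose in the libraries labelled CDX2KO_Braf (median 0.13), the STAT3 feedback inhibitor Socs3 (1.25 ± 0.26, adjusted p = 0.0213). Against SMAD4KO_Braf, Socs3 (1.10, adjusted p = 0.0365) and the Toll-like receptor adaptor Myd88 (0.42, adjusted p = 0.0488) rose. These counts lie near the share of all tested genes that passed (0.0745% in SMAD4KO_Braf, and 6.89% and 6.6% rising in the libraries labelled CDX2KO_Braf). The proposed Reg receptor Extl3, a glycosyltransferase, differed by -0.05, -0.01 and 0.04 in the 3 comparisons, and 0 of the 5 tested genes of its list passed in any of them.

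Of 19 other genes known to be induced by IL-22 or STAT3, 13 were tested, and 0 changed in SMAD4KO_Braf against BRAF (median -0.27). In the libraries labelled CDX2KO_Braf against BRAF, 2 rose and 2 fell (median 0.21), where 14.1% of all tested genes changed. Lcn2, which binds bacterial siderophores, was 1.13, 1.13 and 2.33 FPKM in BRAF, 1.31, 1.96 and 1.87 in SMAD4KO_Braf, and 75.8 and 24.0 in the libraries labelled CDX2KO_Braf (4.15 ± 0.45 against BRAF, adjusted p = 0.00209). Fut2, the fucosyltransferase that decorates the epithelial surface, was 10.7, 1.25 and 7.15 FPKM in BRAF, 12.1, 5.70 and 4.14 in SMAD4KO_Braf, and 80.8 and 85.7 there (3.81 ± 0.69, adjusted p = 0.0132). The secreted phospholipase Pla2g5 (-0.55 ± 0.12, adjusted p = 0.0263) and the kinase Pim1 (-1.10 ± 0.27, adjusted p = 0.0397) fell. Against SMAD4KO_Braf, 4 rose (Lcn2, Fut2, and the hydrogen peroxide producing oxidase Duox2 with its partner Duoxa2) and Pla2g5 fell, where 11.6% of all tested genes changed.

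**Figure D5:**
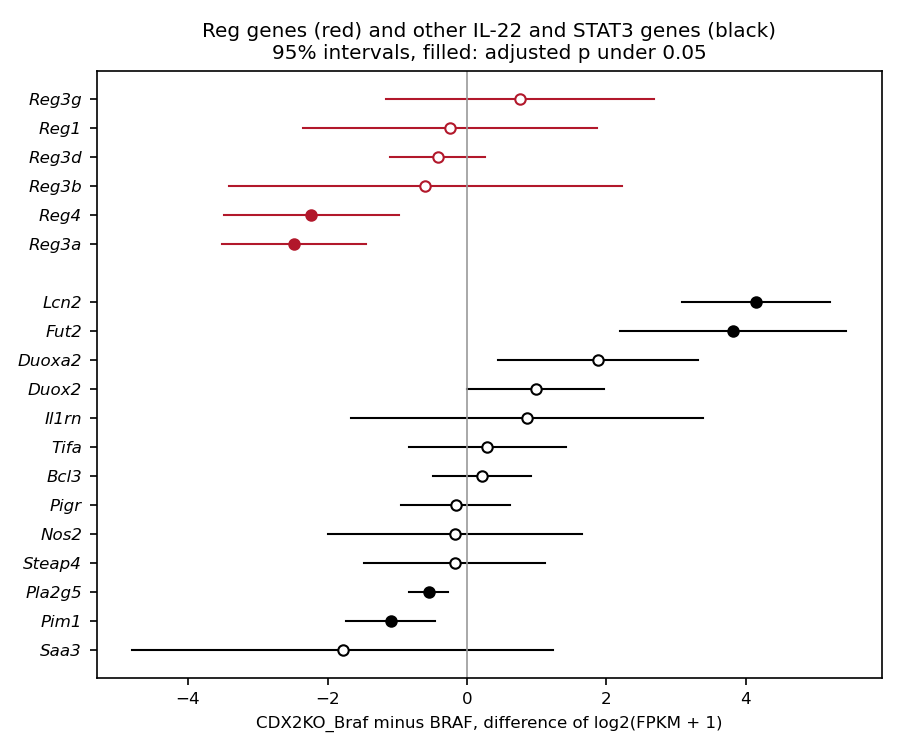
Difference of log2(FPKM + 1) between the libraries labelled CDX2KO_Braf and BRAF (x axis) for the 6 tested Reg genes (red) and 13 other genes known to be induced by IL-22 or STAT3 (black), with 95% intervals and filled points for an adjusted p under 0.05. Lcn2 and Fut2 lie at 4.15 and 3.81, and Reg3a and Reg4 at -2.48 and -2.23.

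Other intestinal lectins and antimicrobial genes also moved both ways. Of 21, 18 were tested, and 0 changed in SMAD4KO_Braf against BRAF (median -0.09). In the libraries labelled CDX2KO_Braf against BRAF, 3 rose: the peptidoglycan binding protein Pglyrp1 (1.66, adjusted p = 0.00664), the bacterial sensor Nod2 (0.75, adjusted p = 0.0296) and Lypd8, which binds flagellated bacteria (2.11, adjusted p = 0.0416). Nod2 reached 1 FPKM only in these libraries and was tested only through them, so its call is no support for a difference. A further 4 fell: Nlrp6 (-2.49, adjusted p = 0.00160), the Paneth cell lysozyme Lyz1 (-2.31, adjusted p = 0.0281), Itln1 (-1.59, adjusted p = 0.0422) and the galectin Lgals3 (-2.19, adjusted p = 0.0487). The median over the 18 was -0.02, and 14.1% of all tested genes changed in this comparison. Against SMAD4KO_Braf, Pglyrp1, Nod2 and Sprr2a2 rose and Nlrp6, Lyz1 and Itln1 fell, where 6.6% of all tested genes rose and 5.01% fell. Sprr2a2, like Nod2, reached 1 FPKM only in the libraries labelled CDX2KO_Braf, so neither call is support for a difference. Lyz1 and Itln1 are also among the Paneth cell markers.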

How the data were processed

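Jejunal crypts were isolated with EDTA and sequenced as 50-base single-end TruSeq v2 libraries, per the labels' protocols. Values are FPKM as the authors deposited them. TopHat2 2.1.0, Cuffnorm 2.2.1, Cuffdiff 2.2.1 and build mm9 are named in the submitters' processing notes, without roles or order. How reads that fit several genes were assigned is not given in the sources used here. Columns were matched to groups by name. Their numbers start at 0 and the sample titles at 1, so no column was tied to a single sample, and 3 columns that match no sample were not used. Genes with at least 1 FPKM in at least 2 of 8 libraries (12084) were fitted as log2(FPKM + 1) by limma 3.58.1 (R 4.3.3). The 3 groups shared 1 model, and the prior variance followed mean expression. Tests were two-sided with Benjamini-Hochberg adjustment over all tested genes and a threshold of 0.05. FPKM gives no count, so depth limits precision by an unknown amount. The fitting script was tested on simulated data. Sequences came from RefSeq and GENCODE tables of GRCm38.p6, another build than mm9, used for names and sequence only; all 7 members matched. All members were named, as were the genes that passed the test in the other lists described; a further marker list is not reported here. The 5 nearest genes per member were taken among those with a mean of at least 5 FPKM, without Gm, Rik and short RNA symbols. The members, lists and tests were chosen with earlier results of these data known. Alternatives were another pseudocount (0.1), other filters, median-ratio and quantile scaling, fits of 2 groups, no trend, robust fitting, library weights, sex as a term, the column number as a block and leaving out each library.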

Additional observations from a re-analysis of the deposited data

How the results depend on the processing

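All values here are counts of genes called by limma or differences on the log2(FPKM + 1) scale. In SMAD4KO_Braf against BRAF, 9 genes were called, 5 without a filter, 1069 with library weights, 78 with sex as a term and 5 to 25 leaving out 1 library; 0 members were called in any fit. For the libraries labelled CDX2KO_Braf against BRAF, 1704 genes were called, 2602 with library weights and 409 to 1833 leaving out 1 library; 2 members were called, 1 with no filter and 0 to 2 leaving out 1 library. Against SMAD4KO_Braf, 1402 genes were called, 2447 with library weights and 234 to 1423 leaving out 1 library; 3 members were called, and 1 to 3 leaving out 1 library, counts that include Reg3d, which was tested only through its SMAD4KO_Braf values. Same-numbered columns did not deviate together (correlations of -0.109 to 0.241 across genes), so the numbers were not taken as pairs; with the column number as a replicate block, 805 genes were called against SMAD4KO_Braf and 1 member, Reg3a, was called in each comparison with the libraries labelled CDX2KO_Braf. Reg4 (adjusted p = 0.0635 against BRAF, 0.0530 against SMAD4KO_Braf) and Reg3d (0.0715 against SMAD4KO_Braf) were not called with the block. The sign of members that were not called changed in some fits. With library weights, Reg1 (-1.09) and Reg4 (-0.37) in SMAD4KO_Braf against BRAF and Reg3g (-0.0296) in the libraries labelled CDX2KO_Braf against BRAF changed sign, as did Reg1 with the replicate block (0.0529 against BRAF, 0.0426 against SMAD4KO_Braf). Leaving out 1 library, the ranges that crossed 0 were -0.84 to 0.76 (Reg1) and -0.0650 to 0.91 (Reg4) in SMAD4KO_Braf against BRAF, -1.11 to 0.62 (Reg1) and -1.71 to 0.20 (Reg3b) in the libraries labelled CDX2KO_Braf against BRAF, and -1.12 to 0.61 (Reg1) and -0.80 to 0.24 (Reg3g) against SMAD4KO_Braf. The causes were not tested. A minimum of 5 FPKM left Reg3d out. Leaving out 1 of the libraries labelled CDX2KO_Braf leaves 1, assumed to vary like the other groups. With median-ratio or quantile scaling the median difference over all genes lay between -0.00835 and 0.0414. With a pseudocount of 0.1 the Reg3a difference in the libraries labelled CDX2KO_Braf was -3.72 against BRAF and -4.63 against SMAD4KO_Braf, with the same members called.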

Other observations

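Pla2g2a, a secreted phospholipase with antibacterial activity made by Paneth cells, was 2546 FPKM in SMAD4KO_Braf library 1 and 15.6 to 49.9 FPKM in the other 7 libraries. The library with the highest Reg3b and Reg3g was another, SMAD4KO_Braf library 0, where Pla2g2a was 45.6 FPKM.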
